A study of Homo sapiens with 8 samples.

Results

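HLA class I and antigen presentation was examined through 9 genes, chosen by name: the heavy chain genes HLA-B, HLA-C, HLA-E and HLA-F, the light chain gene B2M, and TAP1, TAP2, TAPBP and ERAP1, which supply and load peptide. All 9 were found among the 52719 genes with a matched transcript, and 7 of them had a mean of 1 TPM or more (a length-corrected share of the transcripts in a library, on a scale that sums to 1000000) and were tested among 17077 genes. HLA-B and HLA-F fell below that minimum. The RNA came from SH-SY5Y, an established human neuroblastoma cell line of noradrenergic type. In the undifferentiated group there were 4 libraries (replicates 17 to 20). The 4 libraries of the differentiated group (replicates 21 to 24) came from cells given 1 µM 9-cis retinoic acid, a ligand of the retinoid receptors RAR and RXR, for 7 days. Both groups were grown in DMEM/F12 with GlutaMAX, foetal calf serum, penicillin and streptomycin, and libraries were made from total RNA with a stranded mRNA kit. No vehicle is named for the undifferentiated group, so the retinoid and whatever it was dissolved in cannot be told apart, and the time in culture of that group is not given. The labels do not say that replicates were separate cultures, so a p-value here sets the difference against the scatter of these 8 libraries, and that scatter may be technical.

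Class I molecules are built in the endoplasmic reticulum from a heavy chain and beta-2-microglobulin, encoded by B2M. TAP1 and TAP2 form the transporter that brings peptides in from the cytosol, tapasin (TAPBP) holds empty class I molecules at that transporter, and the aminopeptidase ERAP1 trims peptides to length. Neuroblastoma cells are known for low class I levels. The genes are known to respond to interferons, and NLRC5, IRF1 and NF-kB are among their known regulators.

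All 9 genes lie on chromosome 6 except B2M (chr15:44711487-44718877, plus strand) and ERAP1 (chr5:96760810-96808100, minus strand), in GENCODE 29 coordinates on GRCh38. Within the MHC they were HLA-F (chr6:29722775-29738528), HLA-E (chr6:30489467-30494205), HLA-C (chr6:31268749-31272130), HLA-B (chr6:31269491-31357188), TAP2 (chr6:32821833-32838780), TAP1 (chr6:32845209-32853978) and TAPBP (chr6:33299694-33314387). HLA-F and HLA-E are on the plus strand and the other 5 on the minus strand. The annotated span of HLA-B takes in part of HLA-C. Promoter sequences from RefSeq (GRCh38.p14) were found for 8 of the 9 genes. The following stretches run from 200 to 41 bases before the RefSeq start and are shown because HLA-B, HLA-C and B2M each encode a chain of the class I molecule and stood at very different levels in these cells. Capitals mark the searched motifs. They are the NF-kB motif of enhancer A (its full 10-base form with 1 free base) and TTTCNNTTC (a form of the interferon-stimulated response element). The others are TGACG (part of the X2 box, a CRE core) and ATTGG (the inverted CCAAT of the Y box, CCAAT on the other strand).
HLA-B promoter (chr6:31357220-31357379, minus strand): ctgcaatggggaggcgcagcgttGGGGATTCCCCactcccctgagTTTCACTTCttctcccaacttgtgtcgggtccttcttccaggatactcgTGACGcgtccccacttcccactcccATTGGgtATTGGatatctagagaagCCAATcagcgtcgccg
HLA-C promoter (chr6:31272133-31272292, minus strand): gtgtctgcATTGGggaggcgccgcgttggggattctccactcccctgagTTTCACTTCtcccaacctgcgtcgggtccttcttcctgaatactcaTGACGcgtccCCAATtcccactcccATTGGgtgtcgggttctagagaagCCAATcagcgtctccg
B2M promoter (chr15:44711317-44711476, plus strand): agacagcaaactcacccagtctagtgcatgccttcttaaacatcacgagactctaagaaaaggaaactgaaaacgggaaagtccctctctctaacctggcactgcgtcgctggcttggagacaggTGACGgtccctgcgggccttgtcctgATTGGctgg
The HLA-B stretch overlaps an annotated pseudogene exon on the other strand.

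The motifs were searched on both strands in the 250 bases before each start, in 35116 promoters. The NF-kB motif was in 0.4% of them and, of the 8 genes, in HLA-B, where both strands match at almost the same position. TTTCNNTTC was in 6.6% of all promoters and in those of HLA-B, HLA-C, TAP2 and ERAP1. Other forms of the interferon-stimulated response element were not searched. Its absence from B2M, HLA-F, TAP1 and TAPBP therefore does not show that these promoters lack such an element. TGACG, which 21.2% of promoters hold, was present in HLA-B, HLA-C, B2M and TAP2. ATTGG was in 32.0% of all and in HLA-B, HLA-C, HLA-F, B2M, TAP1 and ERAP1. A gene was counted when any of its starts held the motif, and ERAP1 and TAP1 have different starts. In ERAP1, ATTGG lay before the start at chr5:96807945. TTTCNNTTC lay before the one at chr5:96814145, outside the span of ERAP1 given above. In TAP1, ATTGG lay before the start at chr6:32853704 and not before that at chr6:32852761. The nuclear receptor motifs AGGTCA and GGGTCA, each in 12.1% of promoters, were in 0 of the 8, which says only that those letters are not in these windows.

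Of the 7 genes tested, 6 rose with 9-cis retinoic acid and 0 fell (limma on log2(TPM + 1), Benjamini-Hochberg adjusted p under 0.05 over 17077 genes). HLA-C rose 12.5-fold, HLA-E 7.05-fold, B2M 4.28-fold, TAP1 13.7-fold, TAPBP 3.69-fold and ERAP1 3.30-fold as ratios of group means, while the summed TPM of TAP2 did not pass the test. Calls were common in these data: 51.3% of all genes tested were called, 33.9% higher and 17.4% lower. The median log2 fold change of the 7 was 1.83, against 0.10 for all genes tested. That median is the value of TAP1, which passed the 1 TPM minimum through the differentiated libraries alone. With TPM as deposited, 66.1% of all calls were higher, which became 51.0% after median-of-ratios scaling and 45.01% after quantile normalization, and the median of all genes moved to -0.02 and -0.07. The 6 genes were called higher under both scalings, with log2 fold changes from 1.30 for ERAP1 to 3.30 for HLA-C.

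Total RNA from a whole culture cannot separate more RNA per cell from more cells that carry it. The RNA matched the noradrenergic type known for SH-SY5Y in part. Of 10 noradrenergic markers 9 were at 1 TPM or more, with TH below it. The summed level of the markers was 1839 to 1941 TPM in undifferentiated and 1222 to 1434 TPM in differentiated libraries, with 7 lower and 1 higher. Markers of blood cells were near 0, with 10 of 11 below 1 TPM and CD3E, MS4A1, HBB and NKG7 listed at 0. Their sum went from 1.37 to 1.74 TPM up to 20.6 to 24.1 TPM, nearly all of it CD68 (0.338 TPM, then 20.9 TPM), a lysosomal protein gene. The 4 endothelial genes found of 5 listed summed to at most 0.290 TPM in every library. The sum of fibroblast and mesenchymal markers went from 359 to 389 TPM up to 1243 to 1351 TPM, with 5 of 9 called higher and COL1A2 below 1 TPM. Epithelial markers went from 2.31 to 3.75 TPM up to 13.7 to 18.3 TPM, with 2 of 5 called higher (KRT8 and KRT18), and Schwann cell markers from 6.24 to 8.50 TPM up to 14.7 to 18.2 TPM, with 1 of 5 called higher and SOX10 listed at 0. CD68, KRT8 and KRT18 passed the 1 TPM minimum through the differentiated libraries alone. The part of these marker changes in the class I results was not tested.

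**Figure D1:**
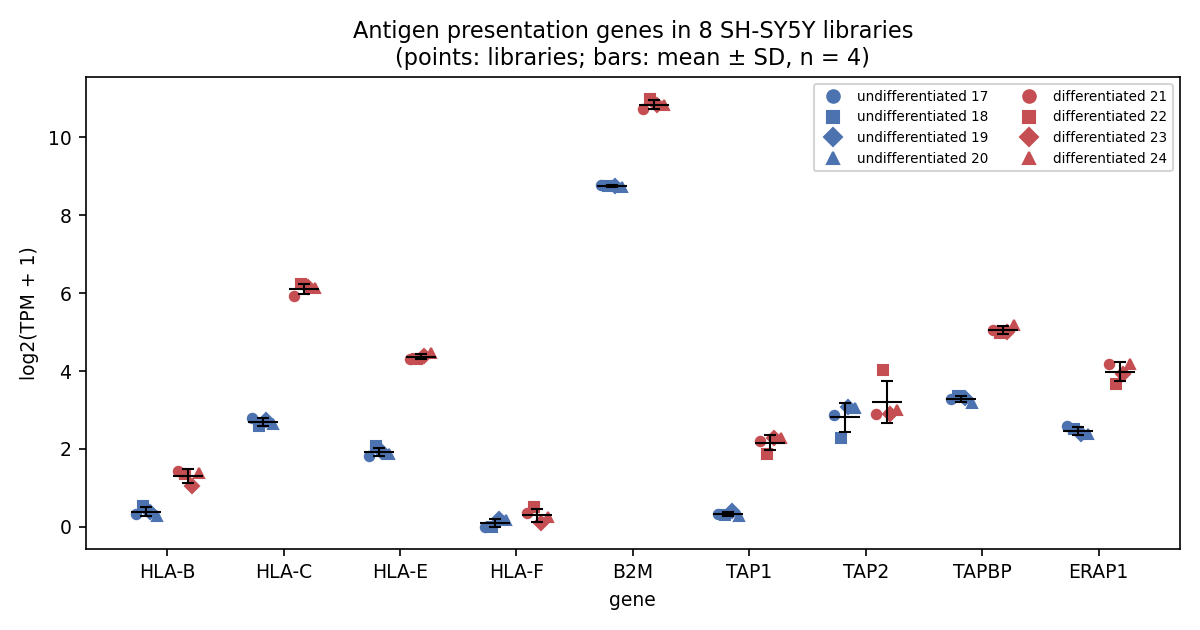
Level of the 9 genes in each library on the log2(TPM + 1) scale, undifferentiated in blue and differentiated in red, with the symbol giving the replicate and bars giving mean ± SD (n = 4 a group). The groups are apart for 7 genes and overlap for HLA-F and for TAP2, where differentiated replicate 22 stands highest.

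Among these 4 heavy chains, HLA-C changed by the widest margin. HLA-C, a classical class I gene whose product also serves as a ligand of killer cell immunoglobulin-like receptors, stood at 5.89, 4.98, 5.75 and 5.27 TPM in undifferentiated replicates 17, 18, 19 and 20 and at 59.6, 74.2, 70.7 and 69.3 TPM in differentiated replicates 21, 22, 23 and 24. Every differentiated library was far above every undifferentiated one. The group means were 5.47 ± 0.421 and 68.4 ± 6.23 TPM (SD, n = 4 each), a log2 fold change of 3.42 ± 0.08 (SE; limma adjusted p = 2.35e-08). With lane 8 alone, which leaves 2 undifferentiated libraries, it was 3.41.

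HLA-E, a nonclassical gene whose product presents leader peptides of other class I chains to NKG2A receptors, was lower than HLA-C in both groups. Its levels were 2.56, 3.22, 2.76 and 2.63 TPM before and 18.9, 18.9, 19.9 and 20.9 TPM after treatment, in replicate order. The groups did not overlap, and the spread within each was small: 2.79 ± 0.300 and 19.7 ± 0.967 TPM (SD, n = 4 each). The log2 fold change was 2.45 ± 0.07 (SE; limma adjusted p = 7.61e-08).

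HLA-B, the most polymorphic classical gene, was barely present. Undifferentiated libraries had 0.263, 0.453, 0.310 and 0.214 TPM and differentiated libraries 1.69, 1.56, 1.08 and 1.62 TPM, giving means of 0.310 ± 0.103 and 1.49 ± 0.279 TPM (SD, n = 4 each). The groups did not overlap, with a difference of 0.92 on the log2(TPM + 1) scale. HLA-B was not tested at the 1 TPM minimum. Without that filter it was called higher (limma adjusted p = 0.000398), as were 19.4% of 33265 genes.

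HLA-F, a nonclassical gene, was listed at 0, 0, 0.144 and 0.130 TPM in undifferentiated and at 0.275, 0.412, 0.0760 and 0.182 TPM in differentiated libraries. The ranges overlapped, and HLA-F was not called without the filter either (limma adjusted p = 0.141). An exact two-sided permutation test, which has 70 arrangements of the libraries, gave p = 0.114 for HLA-F. The same exact test gave 0.0286, the smallest p it allows, for each of the 7 genes whose groups did not overlap. Of all genes tested, 49.6% did not overlap between the groups, and 32.3% did not overlap and were higher.

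Summed, these 4 heavy chain genes went from 8.71, 8.66, 8.96 and 8.25 TPM to 80.5, 95.1, 91.7 and 92.0 TPM, or 8.64 ± 0.294 to 89.8 ± 6.41 TPM (SD, n = 4 each). HLA-C made up 63.3% of that sum before and 76.2% after. Salmon divides reads shared by similar sequences, so the split among HLA genes is less certain than a level of a gene without close relatives. The table held 71 of the 82 annotated primary-assembly transcripts of the 9 genes and 0 of their 347 alternative-haplotype transcripts, and the effect of alleles unlike the reference on these levels was not tested.

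B2M, the light chain shared by all class I molecules, was by far the most abundant of the 9. It stood at 438, 432, 434 and 420 TPM in undifferentiated and at 1688, 2038, 1830 and 1820 TPM in differentiated libraries. The undifferentiated libraries lay within a narrow band, well below the lowest differentiated one. The means were 431 ± 7.57 and 1844 ± 145 TPM (SD, n = 4 each), with a log2 fold change of 2.09 ± 0.06 (SE; limma adjusted p = 3.81e-08).

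TAP1, one chain of the peptide transporter, was near 0 in undifferentiated cells. Its levels were 0.252, 0.235, 0.320 and 0.218 TPM before and 3.64, 2.65, 3.84 and 3.88 TPM after treatment, so every library of the second group was above all of the first. The log2 fold change was 1.83 ± 0.12 (SE; limma adjusted p = 6.28e-06), from means of 0.256 ± 0.0446 and 3.50 ± 0.575 TPM (SD, n = 4 each). TAP1 passed the 1 TPM minimum through the differentiated libraries alone, and the added 1 TPM holds the log2 value down: with 0.1 TPM added it was 3.33.

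TAP2, the other transporter chain, showed no call for the gene as a whole. Summed TPM was 6.26, 3.86, 7.43 and 7.24 in undifferentiated libraries and 6.46, 15.2, 6.47 and 6.99 in differentiated ones. Replicate 22 stood alone above the rest, and the other 3 differentiated libraries lay within the undifferentiated range. The log2 fold change was 0.39 ± 0.29 (SE; limma adjusted p = 0.297), and the exact permutation p was 0.486. The call turned with the transcripts that were summed, as the values of single transcripts show.

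TAPBP, encoding tapasin, stood at 8.79, 9.27, 8.90 and 8.02 TPM before and 32.4, 30.3, 30.9 and 35.5 TPM after treatment, with no overlap. The means were 8.75 ± 0.525 and 32.3 ± 2.33 TPM (SD, n = 4 each), and the log2 fold change was 1.77 ± 0.07 (SE; limma adjusted p = 2.64e-07). ERAP1, the trimming enzyme, rose from 5.02, 4.74, 4.22 and 4.205 TPM to 17.0, 11.6, 14.2 and 17.2 TPM. The lowest differentiated library, replicate 22, was still above every undifferentiated one. For ERAP1 the means were 4.55 ± 0.402 and 15.01 ± 2.63 TPM (SD, n = 4 each), with a log2 fold change of 1.52 ± 0.13 (SE; limma adjusted p = 2.03e-05).

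**Figure D2:**
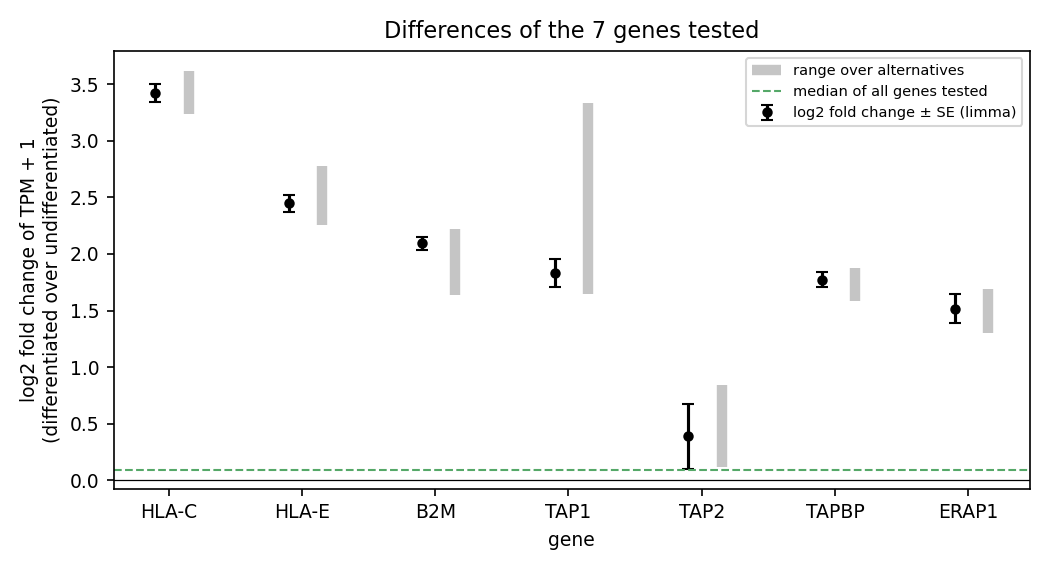
Log2 fold change of TPM + 1 (differentiated over undifferentiated) of the 7 tested genes, with points and bars giving the estimate ± SE and grey bars the range over the alternative settings. The other 6 genes stay at 1.30 or more throughout, TAP1 reaches 3.33 when 0.1 TPM is added in place of 1, and TAP2 spans 0.12 to 0.85.

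The order of the 9 genes changed with treatment. In undifferentiated cells the mean TPM ran B2M, TAPBP, TAP2, HLA-C, ERAP1, HLA-E, HLA-B, TAP1 and HLA-F, from highest to lowest. The ranges of TAP2 and HLA-C overlapped, as did those of HLA-C and ERAP1, and of HLA-B and TAP1, so those neighbours were not separated by their spread. In differentiated cells the order was B2M, HLA-C, TAPBP, HLA-E, ERAP1, TAP2, TAP1, HLA-B and HLA-F, with overlap between neighbours for ERAP1 and TAP2 alone. HLA-C moved from the fourth place to the second.

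A ratio within a library does not depend on how that library was scaled, so the genes other than HLA-F, which was listed at 0 in 2 libraries, were set against B2M. HLA-C was 1.27% ± 0.0871 of B2M TPM in undifferentiated and 3.71% ± 0.151 in differentiated libraries (SD, n = 4 each), a log2 difference of 1.55 with no overlap. HLA-E went from 0.648% to 1.07%, a log2 difference of 0.73, and the sum of the 4 heavy chains from 2.01% to 4.88%, a log2 difference of 1.28, both without overlap. The TPM of HLA-C and of HLA-E was thus higher relative to B2M TPM after treatment. These are ratios of RNA and do not give the make-up of the protein pair. The ratio of TAP1 was also higher, by 1.68, without overlap. The ratio of TAP2 was lower after treatment, with a log2 difference of -1.65 and no overlap. That value rests on the TAP2 sum, which holds much of a short noncoding transcript. For the protein-coding TAP2-201 alone, added after these values were seen, it was -0.71, also without overlap. The denominator there was still the B2M sum, most of it B2M-212, a transcript annotated as a target of nonsense-mediated decay. Whether the groups stay apart against protein-coding B2M transcripts alone was not tested. For HLA-B (0.20), TAPBP (-0.21) and ERAP1 (-0.39) the log2 differences were smaller and the groups overlapped. No test was run on these ratios.

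**Figure D3:**
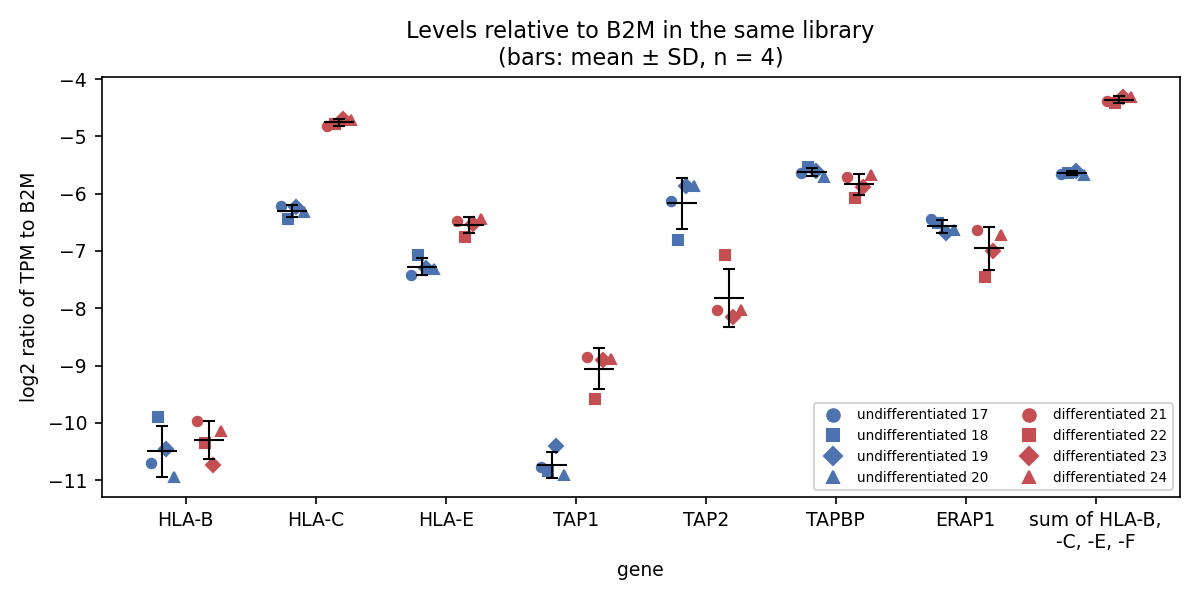
Log2 ratio of TPM to B2M TPM in the same library for 7 genes and the sum of 4 heavy chains, by group, with mean ± SD (n = 4). HLA-C, HLA-E, TAP1 and the sum of 4 heavy chains were higher relative to B2M after treatment, TAP2 was lower, and HLA-B, TAPBP and ERAP1 overlap between groups.

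At the level of transcripts, 20 transcripts of the 9 genes had a mean of 1 TPM or more, and 18 of them were called higher (limma, adjusted p under 0.05 over 53044 transcripts, of which 18.8% were called higher and 10.6% lower). The exceptions were B2M-211 and TAP2-204. Of the 18, 6 averaged under 1 TPM in undifferentiated libraries and so passed the minimum through the differentiated ones alone: HLA-C-202, HLA-C-207, HLA-E-202, TAP1-201, TAPBP-233 and TAPBP-240. Among protein-coding transcripts, HLA-C-201 had a log2 fold change of 3.47, HLA-E-201 of 2.40, TAP1-201 of 1.89, TAPBP-234 of 1.79, ERAP1-202 of 1.59 and ERAP1-201 of 1.41. B2M-208 (0.87) and TAPBP-233 (1.09), also protein-coding, had smaller values than their genes. TAP1-201 was listed at 0.0519, 0.0877, 0.108 and 0 TPM in undifferentiated and 2.91, 2.17, 3.45 and 3.34 TPM in differentiated libraries. Most of the little TAP1 seen before treatment was therefore TAP1-202, a retained-intron transcript at 0.194 ± 0.0319 TPM. Values were given for only 3 of the 6 annotated TAP1 transcripts, and these levels are near 0. The mix of TAP1 transcripts thus cannot be read as the mix in the cells.

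The 2 main transcripts of TAP2 moved differently. TAP2-201, the 5684-nt protein-coding form, stood at 1.52, 1.34, 1.39 and 1.53 TPM before and 3.77, 4.18, 3.74 and 3.42 TPM after treatment, with no overlap and no library apart from the others. Its log2 fold change was 0.96 ± 0.10 (SE; limma adjusted p = 0.000204). TAP2-204, a 274-nt noncoding transcript, stood at 3.88, 0.875, 5.60 and 4.44 TPM and then 1.85, 7.66, 2.32 and 3.01 TPM, a log2 fold change of 0.00 ± 0.47 (SE). The scatter of the TAP2 sum, replicate 22 included, lay mostly in this short transcript and in TAP2-202, which was at 1.96 TPM in replicate 22 and at 0 in the other 3 differentiated libraries. With protein-coding transcripts alone, TAP2 was called higher (log2 fold change 0.85, limma adjusted p = 0.00235), and so it was without transcripts under 300 nt, a setting added after these values were seen (0.77, limma adjusted p = 0.00539).

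As a share of TAP2, TAP2-201 was 24.3%, 34.7%, 18.7% and 21.1% before and 58.4%, 27.6%, 57.8% and 48.9% after treatment. Replicate 22 lay inside the undifferentiated range and the other 3 above it. The mean was 23.4 percentage points higher and did not pass the test (limma on arcsine square-root shares, unadjusted p = 0.00786, adjusted p = 0.101). Without replicate 22 the difference was 30.3 points and passed (adjusted p = 0.0140). Of the 8 transcript shares tested in these genes, 0 were called, against 2.39% of 22951 shares over all genes, and TAP2-201 was the 1 called without replicate 22.

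B2M was spread over several transcripts. B2M-212, a 604-nt transcript annotated as a target of nonsense-mediated decay, held most of it, at 303, 306, 292 and 290 TPM before and 1159, 1193, 1205 and 1261 TPM after treatment. Its log2 fold change was 2.01 ± 0.04 (SE), and its share of B2M, 69.1% and 65.6%, was not called. B2M-204, a protein-coding transcript, rose by a log2 fold change of 1.68. B2M-201, also annotated as a target of nonsense-mediated decay, rose by 2.24. B2M-205, a 580-nt noncoding transcript, was more scattered, at 42.5, 37.5, 51.4 and 40.5 TPM and then 170, 416, 276 and 211 TPM, with replicate 22 highest (log2 fold change 2.54). Because 3 of the 15 annotated B2M transcripts were not in the table, protein-coding B2M-215 among them, the mix of transcripts cannot be read as the mix in the cells.

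**Figure D4:**
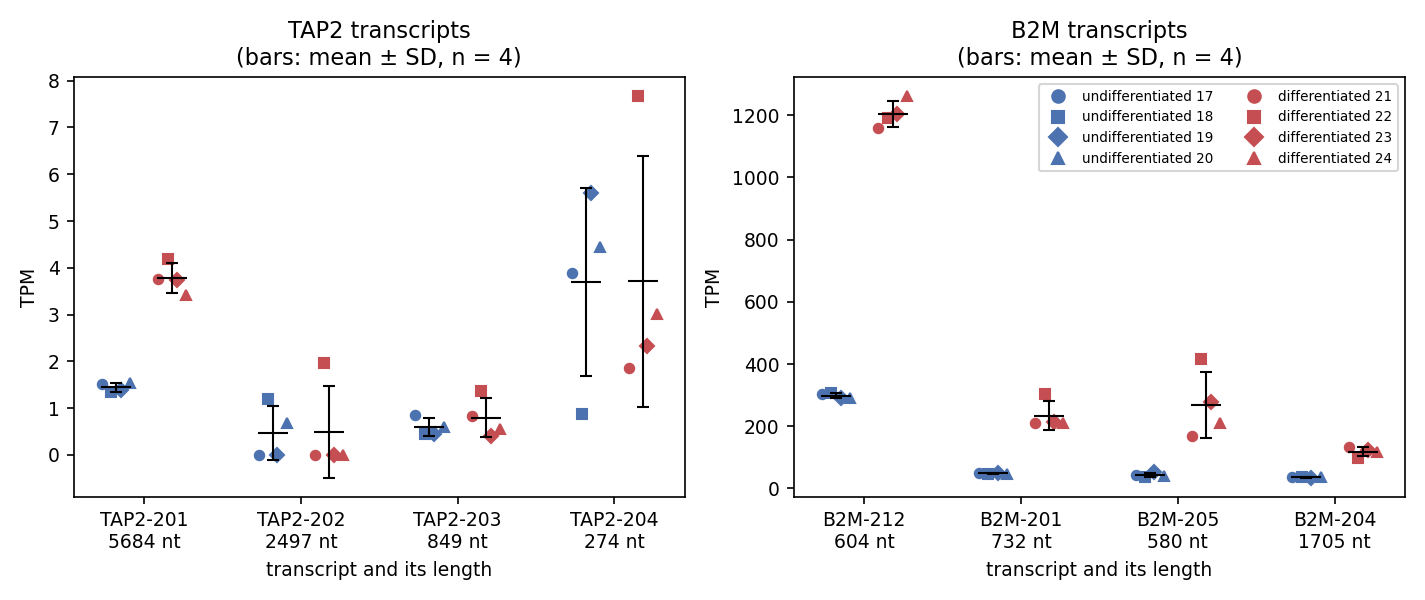
TPM of the 4 most abundant transcripts of TAP2 (left) and B2M (right) in each library, with transcript length under each name and bars giving mean ± SD (n = 4). TAP2-201 separates the groups while TAP2-204 overlaps, and all 4 B2M transcripts separate them.

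The other genes of antigen processing were read from lists of related genes. Counts in each list stand against 33.9% of all genes tested called higher and 17.4% called lower. Of 16 class I-like genes, 2 reached 1 TPM and both rose: FCGRT, the neonatal Fc receptor (18.2 to 53.1 TPM, log2 fold change 1.49) and MR1, which presents vitamin B metabolites (0.703 to 3.36 TPM, 1.34). MR1, like PSMB8, PSMB9, ERAP2, NLRC5 and GBP2 in the other lists, passed the minimum through the differentiated libraries alone. Of 13 genes for folding and loading in the endoplasmic reticulum, 12 were tested, 10 were called higher and 0 lower, and their median was 0.54 on the log2 scale. Calreticulin (CALR) and the disulfide isomerase PDIA3, both parts of the peptide-loading complex, stood at 232 and 30.4 TPM before and at 432 and 55.6 TPM after treatment (0.90 and 0.85). HSPA5, the chaperone BiP, and P4HB rose by 0.90 and 0.85. TAPBPL, a tapasin relative that edits peptides outside the loading complex, was below the minimum at 0.0191 and 0.408 TPM.

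Of 18 genes that make and trim peptides, all were tested, 8 rose, 3 fell and the median was 0.14. That is 44.4% higher and 16.7% lower, not far from the 33.9% and 17.4% of all genes tested, whose median was 0.10. The 3 immunoproteasome subunits were among those that rose. PSMB8, with the widest change in the list, was at 0.363, 0.544, 0.439 and 0.534 TPM before and 10.2, 12.0, 10.1 and 9.56 TPM after treatment, a log2 fold change of 2.96 ± 0.09 (SE; limma adjusted p = 9.88e-08). PSMB9 went from 0.285 to 2.26 TPM (1.34) and PSMB10 from 18.6 to 35.2 TPM (0.88). Of the constitutive subunits they replace, PSMB5 had a log2 fold change of -0.03 and PSMB6 of 0.13, neither called, and PSMB7 of -0.14, called lower (limma adjusted p = 0.0433). The PSMB7 call was lost without any 1 of replicates 17, 18, 19, 20, 21 or 24 (-0.15 to -0.10), and PSMB6 was called higher without replicate 21 (0.16). The activator subunit PSME1 rose by 1.33 and ERAP2, a partner of ERAP1 in trimming, by 1.39 (0.273 to 2.33 TPM). TPP2, a cytosolic peptidase, fell by 0.42 and PSME3, a nuclear activator subunit, by 0.30. Under each of the 2 other scalings 5 of the 18 were called lower.

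Of 30 regulators of class I transcription, 27 were tested, 17 rose and 1 fell (NR2F1, -0.12), with a median of 0.43. The shares were 63.0% and 3.70% of those tested, against 33.9% and 17.4% of all genes tested. After median-of-ratios scaling 14 were called higher and 3 lower, and after quantile normalization 14 and 4. The NR2F1 call was lost without any 1 of replicates 17, 18, 19, 23 or 24 (-0.13 to -0.10). NLRC5, the class I transactivator, rose from 0.658, 0.274, 0.676 and 0.391 TPM to 7.70, 4.56, 7.51 and 7.03 TPM, without overlap, a log2 fold change of 2.35 ± 0.17 (SE; limma adjusted p = 9.98e-06). IRF1 went from 1.25 to 7.35 TPM (1.88) and IRF9 from 13.7 to 73.7 TPM (2.35). The retinoid receptor genes RARB and RXRB rose by 3.87 and 0.44. RFX5, which helps NLRC5 bind the X box, was at 79.7 and 68.2 TPM and was not called (-0.25, limma adjusted p = 0.220). It was called lower after median-of-ratios scaling (-0.38) and quantile normalization (-0.35).

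Of 14 cytokine receptor, kinase and ligand genes, 10 were tested, 9 rose and 0 fell, with a median of 0.91. Of all genes tested, 33.9% were called higher and 17.4% lower. TNFRSF1A, the main TNF receptor, rose from 5.35 to 41.7 TPM (2.75), IL10RB by 1.67, IFNAR2 by 1.30 and IFNGR2 by 0.94. The ligand genes IFNB1, IFNG and TNF were listed at 0 in the libraries. Of 25 interferon-stimulated genes, 19 were tested, 15 rose and 1 fell (MX2, -0.67), with a median of 1.24. IFITM3 went from 1.32 to 65.0 TPM (4.84), IFITM2 from 6.62 to 77.9 TPM (3.37) and GBP2 from 0.761 to 14.1 TPM (3.10). This list shares PSMB8 and PSMB9 with the peptide list.

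Of 13 genes of the class II pathway, which presents peptides from outside the cell, 11 were below 1 TPM and 2 were tested: CTSS, a lysosomal protease, rose from 1.45 to 8.81 TPM (1.999), and HLA-DMA was not called (0.03). CIITA, the class II transactivator, was below the minimum at 0.223 and 0.327 TPM. Of 12 genes for turnover of class I molecules, all were tested, 7 rose, 1 fell (RAB11A, -0.37) and the median was 0.36. The shares were 58.3% and 8.33%, against 33.9% and 17.4% of all genes tested. The 4 widest rises were MARCHF4 (0.77), SEL1L (0.59), TMEM129 (0.50) and SPPL3 (0.39). After median-of-ratios scaling 4 of the 12 were called higher.

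**Figure D5:**
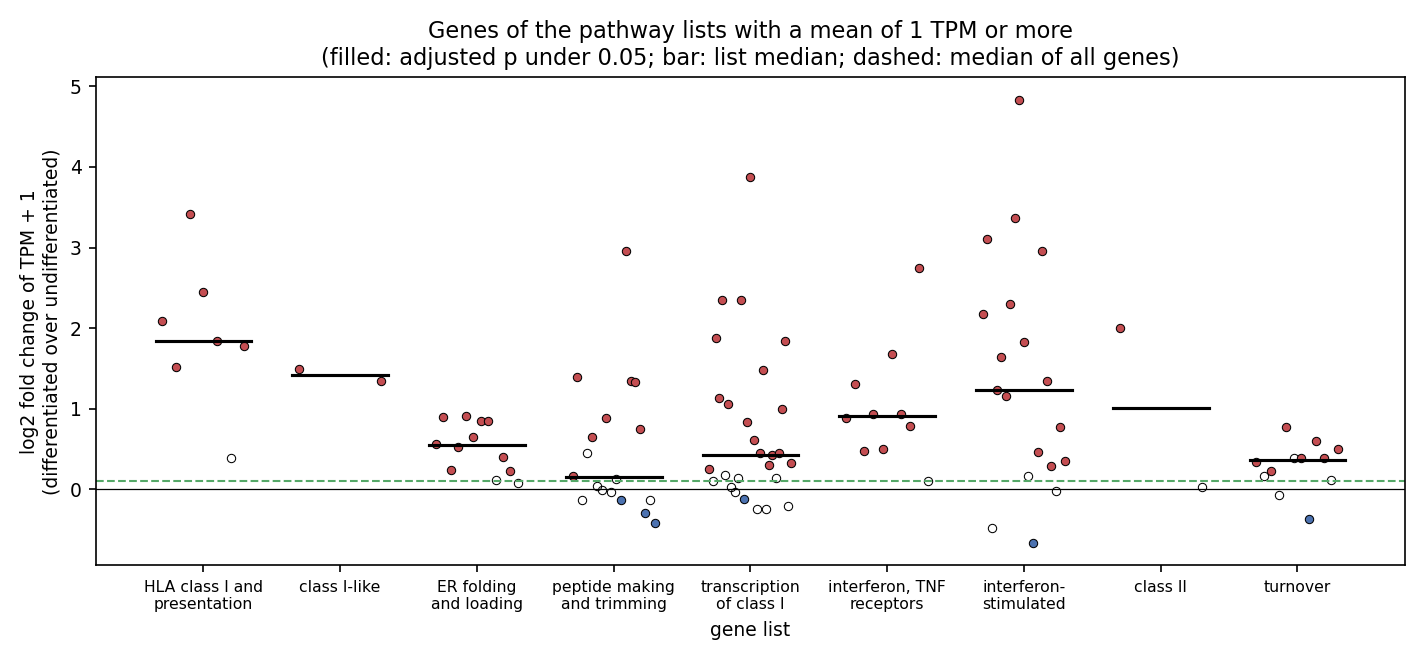
Log2 fold change of TPM + 1 of each tested gene by list, with filled red and blue points for genes called higher and lower, open points for genes not called, bars for list medians and a dashed line for the median of all genes (0.10). The median of the class I and presentation genes is 1.83, the value of TAP1, which passed the minimum through the differentiated libraries alone. Medians of the listed related genes run from 0.14 for peptide making to 1.42 for the class I-like genes.

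The genes whose log2 levels followed the heavy chain sum most closely over the 8 libraries were ANXA2, PDIA4, PRCP, IL32 and PTN, with Pearson r from 0.9997 to 0.9998. The 8 points fall into the 2 treatment groups, so r mostly reflects the step between them, and 798 of 17070 genes had r above 0.99. ANXA2 went from 106 to 604 TPM, PDIA4 from 100.2 to 243 TPM, PRCP from 37.5 to 135 TPM, IL32 from 0.578 to 24.2 TPM and PTN from 53.0 to 496 TPM.

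Undifferentiated replicates 17 and 18 were sequenced on lane 7 and all other libraries on lane 8. Between lanes, within the undifferentiated group, 29 of 17077 genes were called and none of the 7 tested genes was. Within lane 8 alone the log2 fold changes were 2.48 for HLA-E, 2.11 for B2M, 1.82 for TAP1, 1.81 for TAPBP and 1.60 for ERAP1, all called, and 0.14 for TAP2, not called. HLA-B passed the 1 TPM minimum there through the differentiated libraries alone, which are 4 of the 6, and had a log2 fold change of 0.97 (limma adjusted p = 0.00785).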

How the data were processed

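Total RNA of SH-SY5Y cells was sequenced in 8 libraries, 4 a group. The authors deposited 1 table of TPM for 194993 Ensembl transcripts, and each library sums to 1000000, so the sequencing depth is unknown. FastQC 0.11.2, Salmon (version not given) and GRCh37 are named in the submitters' processing notes. The transcripts were matched by identifier, without version, to GENCODE 29 (GRCh38): 180930 matched (92.79%), holding 93.18% to 94.98% of the TPM, and were summed per gene. Of the genes, 16265 to 17370 per library reached 1 TPM.

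Groups were compared with limma 3.58.1 (R 4.3.3) on log2(TPM + 1) with an intensity trend, once over genes and once over transcripts, keeping those that averaged at least 1 TPM. A fold change on that scale understates the change of low genes. Shares of transcripts were tested in genes of 5 TPM or more in each group, for transcripts holding 10% to 90% of the gene, and shares had to move by 10 percentage points to be called. Adjusted p-values are Benjamini-Hochberg over all features tested, two-sided, with calls under 0.05. Single genes were also given an exact permutation test. On simulated data built from these libraries, the gene fit recovered 97.5% of genes raised by 1 and 90% of genes lowered by 1 on the log2 scale, and 50% and 65% at 0.5. Only genes with higher mean levels were changed, so these rates do not cover low genes such as TAP1 and NLRC5. Far fewer genes were changed there than were called in the data.

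All 9 genes are described. Up to 4 transcripts of each gene with the highest mean TPM were eligible for naming. Of each related list the 4 called genes with the widest change were named, together with NLRC5, IRF1, RFX5, PSMB8, PSMB9, PSMB10, ERAP2, CALR, PDIA3, TAPBPL, CIITA and RXRB. Genes called lower, PSMB5, PSMB6, PSMB7, HLA-DMA, CD68, B2M-205, TAP1-202, TAP2-202 and the ligand genes were named after their values were seen. A further 2 genes of the rule and lists are not reported here. The genes, lists and rules were chosen with earlier results of these data known. Alternatives covered the pseudocount, filter, scaling, transcript set, trend, weights, lane and each library left out in turn.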

Additional observations from a re-analysis of the deposited data

Results flagged for a closer look

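In 10 of 154 groups of 4 libraries, the highest or lowest library lay farther from the others than Dixon's 95% critical value for 4 values allows. Chance alone gives about 1 in 20.

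Differentiated replicate 22 accounted for 4 of them, all in class I and presentation genes. TAP2 stood at 15.2 TPM there, against 6.46 to 6.99 TPM in the other differentiated libraries. B2M-201 was at 302.6 TPM, against 209 to 213 TPM. The log2 ratio to B2M was highest for TAP2, at -7.07 against -8.14 to -8.02, and lowest for TAP1, at -9.58 against -8.90 to -8.86. Without replicate 22 the log2 fold change of TAP2 was 0.12 and its sum was still not called. By transcript length, replicate 22 had a median log2 difference from the rest of its group of -0.37 for transcripts of 500 nt or less. It was -0.33 for those over 500 and up to 1000 nt and -0.26 for those over 4000 nt. Between these lengths it was small: -5.76e-05 up to 2000 nt and -0.06 from there up to 4000 nt. Replicate 21 differed the other way, by 0.23, 0.22 and 0.19 in the classes named first and by 0.03 and 0.07 in the middle ones. TAP2-204 (274 nt) and B2M-201 (732 nt) were highest in replicate 22, opposite to the median of their length classes.

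In undifferentiated replicate 17, HLA-E-201 was lowest at 2.23 TPM, against 2.54 to 2.59 TPM in the others. Among related and marker genes, CALR was highest in undifferentiated replicate 19 at 243.5 TPM (others 225.9 to 228.9 TPM). CHGA and DBH were lowest in undifferentiated replicate 17, at 205 and 203.6 TPM. KRT18 was lowest in undifferentiated replicate 19 at 0.138 TPM, and KRT8 highest there at 1.42 TPM.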

How the results depend on the processing

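HLA-C, HLA-E, B2M, TAPBP and ERAP1 kept their direction and their call under all 20 alternatives, and TAP1 under the 19 that tested it, since it does not reach the 5 TPM filter. The number of the 9 genes called higher ran from 5 to 7. TAP2 was called with protein-coding transcripts alone and without transcripts under 300 nt, and its log2 fold change ran from 0.12 to 0.85. Genes called lower numbered 2970 as reported, 5098 after quantile normalization and 1886 in lane 8 alone. Member transcript shares called ranged from 0 to 1 as each library was left out, the 1 without replicate 22. Of the lists, class I-like genes called higher numbered 7 without a filter and 1 with the 5 TPM filter, interferon-stimulated genes 7 with the 5 TPM filter, and transcription regulators called lower ran from 0 to 4. The log2 difference of the TAP2 ratio to B2M was -0.71 with TAP2-201 alone set against the whole B2M sum. B2M-211 was called without replicate 23 (2.43), and TAPBP-240 was no longer called in lane 8 alone (0.83). Adding haplotype transcripts, which is among the 20 alternatives, was no test for the 9 genes, because 0 of their 347 such transcripts were in the table. The cause of these shifts was not tested where the setting did not itself remove genes or libraries. No paired analysis was possible because the labels give no pairing of libraries between the 2 groups. Depth is unknown, so the counting error of values under 1 TPM cannot be given here.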
